A study of Mus musculus with 6 samples.

Results

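Chromatin remodelers slide, evict or exchange nucleosomes with the energy of ATP, and they fall into the SWI/SNF, ISWI, CHD and INO80 families, which differ in their ATPase and in the subunits around it. Histone deacetylases remove acetyl groups from histone tails and often work inside such complexes, as in the NuRD complex, while DNA methyltransferases and TET enzymes add and oxidize methyl groups on cytosine. In the developing retina, SWI/SNF subunits, class I deacetylases and DNA methylation enzymes are known to take part in progenitor proliferation and in the differentiation of neurons and photoreceptors. The genes described here are 46 such genes, found by name in the table of 11339 genes measured in the retinas of *Mll1KO* and WT mice at P14, and all 46 were present. They comprise 9 families (SWI/SNF ATPases and core subunits, ARID and PBAF subunits, ISWI, CHD, NuRD subunits other than the ATPases, class I deacetylases, class II and IV deacetylases, DNA methylation enzymes and histone demethylases) and *Bahcc1*, a gene outside these families. The measured values that chose them were the CPM minimum that the authors' table imposes on its rows and the comparison of *Mll1KO* with WT itself, so all values below are a description of these genes, their calls are counted without a p-value, and nothing is inferred from their share of changed genes.

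*Mll1KO* mice carried *MLL1* fl/fl, the floxed alleles of the H3K4 methyltransferase gene *Mll1*, together with a Cre transgene, and both *Mll1KO* and WT mice were of strain C57Bl6/J and aged P14. The controls are labelled WT, and whether they carried floxed alleles is not given. The Cre transgene drives recombination in retinal progenitor cells, so cells of other origin in the dissected tissue keep the gene, as do progenitors that escape Cre. The study compared 3 *Mll1KO* with 3 WT samples by RNA sequencing, and each sample pooled a pair of retinas. Sequencing depth, recovered from the deposited values as reads per library, was 23836033, 19777205 and 19323512 for the WT libraries a, b and c and 23348922, 19855963 and 17961097 for those of *Mll1KO*. Levels are RPKM, in which reads are divided by gene length and by the library total, and triplets of values are always given in the order of samples a, b and c. Differences are log2 fold changes of RPKM + 1, *Mll1KO* minus WT, which understate the change of weakly expressed genes. A gene is called where limma, fitted across all 11339 genes, gave it an adjusted p under 0.05. The samples are separate samples per the labels, but nothing says which mice or litters they came from, so the p-values measure the spread between these samples.

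The targeted gene, listed under its current symbol *Kmt2a*, was measured first. It lies on the minus strand of chromosome 9 between 44803355 and 44881296 in GRCm38, and its RPKM was 36.1, 36.9 and 34.6 in WT and 22.9, 20.4 and 22.3 in *Mll1KO*. Every *Mll1KO* sample was below every WT sample, and the *Mll1KO* mean was 60.9% of the WT mean; reads from exons outside the floxed part are counted as well. One further difference among the samples stood apart from genotype. *Xist*, the RNA that coats the inactive X chromosome in female cells, had an RPKM of 71.7, 75.8 and 72.5 in WT but 129.6, 0.590 and 128 in *Mll1KO*, so that *Mll1KO* sample b carried almost none and *Mll1KO* samples a and c more than any WT sample. The makeup of the pools by sex thus differed between samples. Counts below are also given without *Mll1KO* sample b and with the *Xist* level as a covariate, an alternative added after these values were seen. Neither can set sex makeup apart from genotype. Without sample b, the remaining *Mll1KO* samples were all above WT in *Xist*, and the covariate rests mostly on the low value of sample b. Of the genes described, *Hdac6* is the one on the X chromosome, and its RPKM was 19.9, 20.8 and 20.3 in WT and 21.5, 20.6 and 20.2 in *Mll1KO*. *Pmel*, a gene of pigment cells, had an RPKM of 57.1, 15.1 and 99.4 in WT and 9.37, 34.0 and 10.98 in *Mll1KO*, a spread within each genotype whose part in the results was not tested.

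Fold changes of the remodeler, deacetylase and DNA methylation genes were small and lay on both sides of 0, and *Bahcc1* stood far below the rest. Apart from *Bahcc1*, 32 genes had a lower and 13 a higher mean in *Mll1KO*, called or not, where 6765 of all 11339 genes had a lower mean. Again without *Bahcc1*, 18 of 45 genes were called, 4 of them higher and 14 lower, where 23.3% of all genes were called, 8.81% higher and 14.5% lower. The median log2 fold change of the 45 genes was -0.08, that of all genes was -0.03, and the genes ranged from -0.33 for *Chd7* to 0.21 for *Hdac9*. By percent of WT, *Tet1* at 76.8% and *Kdm1b* at 78.0% stood below *Chd7* at 78.9%. The samples of the genotypes did not overlap in 30 of the 45 genes, 7 higher and 23 lower, against 41.1% of all genes. Each of these genes had reads in every library, the fewest being 207 for *Smarcd3*. The lowest CPM of *Smarcd3* was 10.7, followed by 12.3 for *Hdac1* and 20.4 for *Kdm1b*, while the lowest of any gene was 5.01, and genes below the authors' minimum were not analysed here. Because retinas were sequenced in bulk, fewer cells of a type and less RNA per cell cannot be told apart.

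The balance between higher and lower genes depended on how the libraries were scaled. With TMM factors 21.4% of all genes were called, 11.1% higher and 10.3% lower, so the share of higher genes among all calls was 51.9% in place of 37.8%. The remodeler, deacetylase and DNA methylation genes called with TMM factors were 13, 4 higher and 9 lower, and *Arid2*, *Dnmt1*, *Gatad2b*, *Smarcd1* and *Smarce1* lost their call. Setting the summed RPKM of rod markers equal in all libraries lowered the all-gene median to -0.31 and called 83.8% of all genes lower. Under that scaling 41 of the 45 genes were called, all lower, so directions below are also given relative to that median. Without *Mll1KO* sample b, 12 genes were called, 3 higher and 9 lower, while 1953 of all genes were, 775 higher and 1178 lower. With the *Xist* level as a covariate 17 of these and 2284 of all genes were called, *Smarce1* being the one lost. Leaving out *Mll1KO* sample c left 11 called genes of these and 1757 of all genes, and leaving out WT sample b left 14 and 1704, where all samples gave 2643. *Smarca4*, *Arid1a*, *Chd3*, *Chd7*, *Gatad2a*, *Hdac2*, *Tet1*, *Tet3* and *Kdm1b* were called lower under every alternative and every omission of a sample that was run. How many of all genes kept their call in this way was not counted, so nothing is read from this number. Equal rod sums, which called 83.8% of all genes lower, could hardly remove a lower call, while no higher call among these genes outlasted them.

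**Figure D1:**
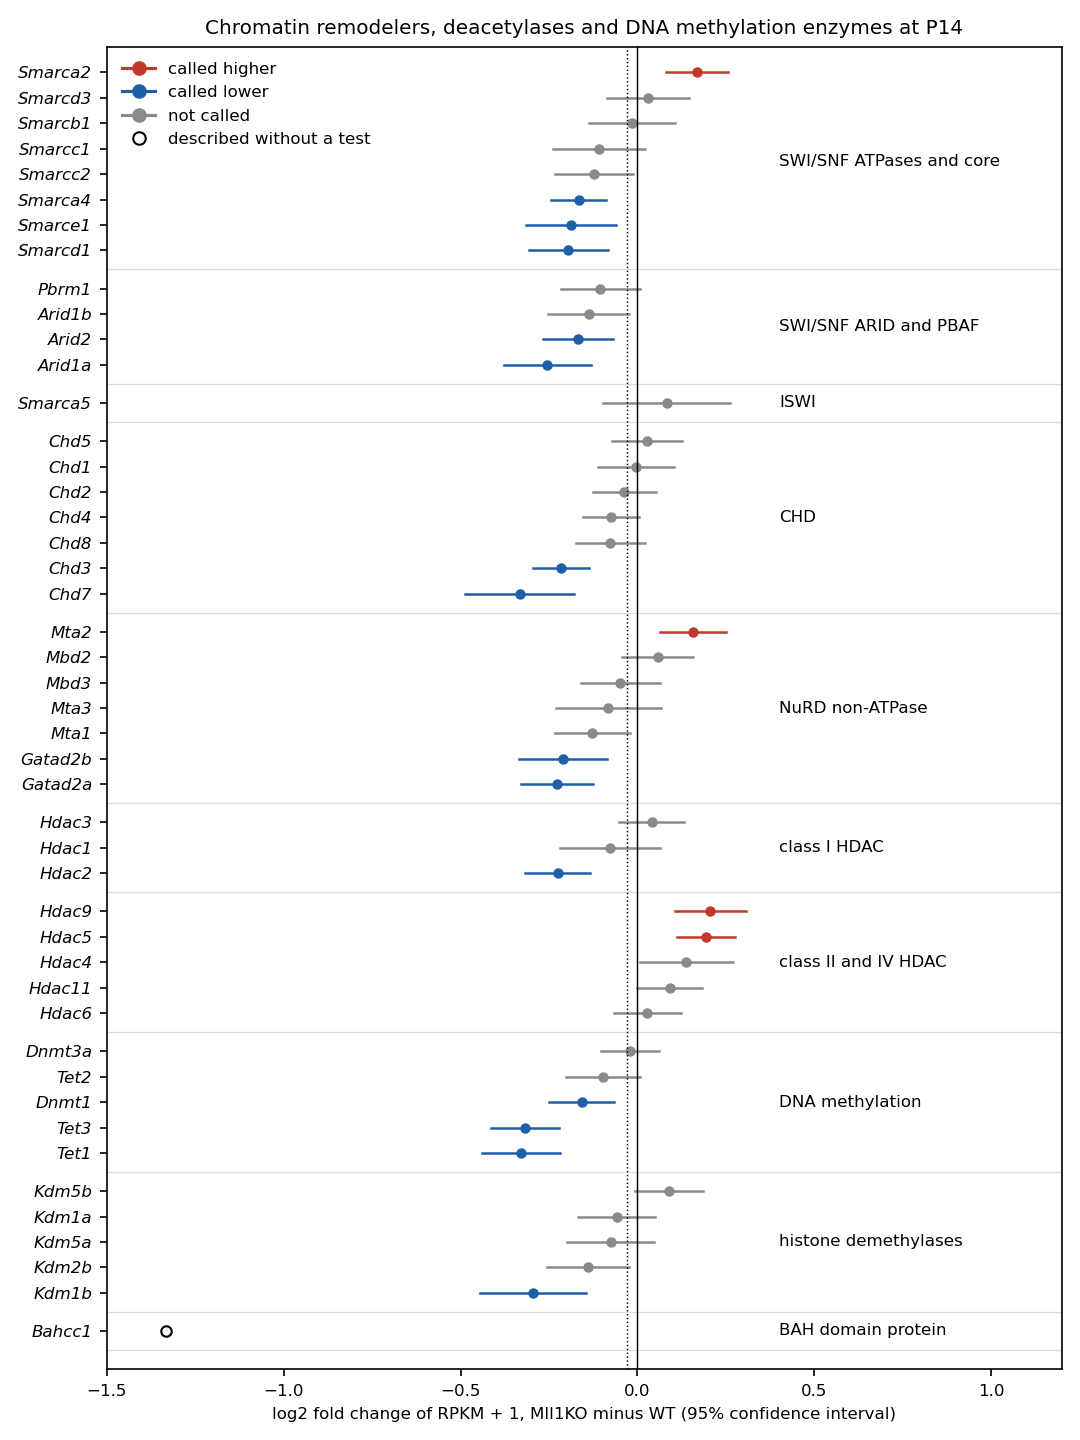
Log2 fold change of RPKM + 1 (*Mll1KO* minus WT, horizontal axis) with its 95% confidence interval for each gene, grouped by family; red and blue mark genes called higher and lower, grey those not called, the open circle *Bahcc1*, and the dotted line the median of all genes. Most families lie left of 0 and class II and IV deacetylases right of it, a position that setting rod sums equal across libraries moves below 0.

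SWI/SNF complexes contain either *Smarca4* (BRG1) or *Smarca2* (BRM) as their ATPase, and these alternative motors moved in opposite directions. *Smarca4* had an RPKM of 73.4, 74.1 and 72.5 in WT and 64.8, 65.1 and 65.8 in *Mll1KO*, and *Smarca2* had 35.6, 35.2 and 35.6 in WT and 41.2, 38.6 and 40.2 in *Mll1KO*. All *Mll1KO* samples lay below WT for *Smarca4* and above WT for *Smarca2*, with no overlap and with little spread among WT samples. *Smarca4* fell to 88.9% of WT (log2 fold change -0.17, 95% confidence interval -0.24 to -0.09). *Smarca2* was called higher at 113% of WT (log2 fold change 0.17, 95% confidence interval 0.08 to 0.26), a call that ended where WT sample b or *Mll1KO* sample c was omitted. With equal rod sums *Smarca2* was called lower at -0.14, which is 0.17 above the median of all genes under that scaling. The ratio of *Smarca2* to *Smarca4* RPKM within a library, which no scaling of libraries alters, was 0.486, 0.475 and 0.490 in WT and 0.636, 0.592 and 0.612 in *Mll1KO*. It was higher in each *Mll1KO* sample than in any WT sample, and it is one of 5 ratios chosen after the values were seen, so it carries no test. The length behind the RPKM of *Smarca2* was 7854 bases where its annotated exons cover 14269, so the level of this ratio is uncertain. *Smarca4* itself was singled out beyond the rule for named genes after its values were seen.

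Core subunits surround the ATPase, and *Smarcc2* (BAF170), a scaffold of the complex, was the most abundant gene of the family per length. Its RPKM was 133, 122 and 117 in WT and 112, 115 and 114 in *Mll1KO*, and though the samples did not overlap, WT sample a lay well above WT samples b and c and the gene was not called (log2 fold change -0.12). *Smarcd1* (BAF60a), a subunit that contacts transcription factors, had the lowest log2 fold change of RPKM + 1 among core genes, with an RPKM of 34.0, 31.5 and 29.9 in WT and 27.8, 27.1 and 27.9 in *Mll1KO*. *Mll1KO* samples lay close together beneath those of WT (log2 fold change -0.20, 95% confidence interval -0.31 to -0.08), but the call was lost with TMM and RLE factors and without WT sample b or *Mll1KO* samples b or c. Exons of other genes cover 12.7% of its exon bases, so part of its reads is uncertain. *Smarce1* (BAF57), which carries an HMG box, was called lower (log2 fold change -0.19) and by percent of WT stood below *Smarcd1*, at 86.0% against 86.8%, yet it shares 15.0% of its 50-base stretches with *Gm8494* and lost its call under 3 scalings, with the replicate block, under the covariate and in 5 of the omissions of a sample. The remaining core genes *Smarcb1*, *Smarcc1* and *Smarcd3* were not called and had log2 fold changes of -0.02, -0.11 and 0.03, and exons of *Chpf2* and *Mir671* cover 48.2% of those of *Smarcd3*. The sign of *Smarcb1* turned with TMM, RLE and upper-quartile factors, where it was between 0.01 and 0.02.

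ARID subunits set the type of SWI/SNF complex, *Arid1a* and *Arid1b* being alternatives in BAF and *Arid2* and *Pbrm1* marking PBAF. All 4 had lower means in *Mll1KO* under each scaling that was run, with a median log2 fold change of -0.15, and the samples of the genotypes overlapped for none of them, against 41.1% of all genes without overlap. *Arid1a* was the most abundant and had the lowest log2 fold change, with an RPKM of 43.0, 39.3 and 36.9 in WT and 34.0, 32.5 and 32.8 in *Mll1KO*. Its WT samples had an SD of 3.10 RPKM (n = 3), while its *Mll1KO* samples lay closer together and below (log2 fold change -0.26, 95% confidence interval -0.38 to -0.13). *Pbrm1*, the polybromo subunit, had the highest log2 fold change of these genes, with an RPKM of 16.0, 15.3 and 14.2 in WT and 13.9, 14.2 and 14.02 in *Mll1KO*. The nearest samples, WT c and *Mll1KO* b, almost touched, and it was not called (log2 fold change -0.10, 95% confidence interval -0.22 to 0.01). *Arid2* was called at -0.17, a call lost with TMM, RLE and upper-quartile factors and in each omission of a sample but that of WT sample c, and *Arid1b* was not at -0.14, the latter being called with limma-voom and without WT sample c. Over both groups of SWI/SNF genes, 6 of 12 were called, 1 higher and 5 lower, against 23.3% of all genes, 8.81% higher and 14.5% lower, and of these *Smarca4* and *Arid1a* kept their call throughout.

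ISWI was represented by its ATPase *Smarca5* (SNF2H), which spaces nucleosomes. Its RPKM was 3.04, 3.39 and 3.36 in WT and 3.01, 3.59 and 3.99 in *Mll1KO*, the highest value being in *Mll1KO* sample c and the lowest in *Mll1KO* sample a. The genotypes overlapped, the gene was not called (log2 fold change 0.08, 95% confidence interval -0.10 to 0.26), and 28.2% of its 50-base stretches are shared with *Smarca5-ps*.

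CHD proteins combine chromodomains with a remodeling ATPase, and of these 7 genes *Chd7* and *Chd3* were called, both lower, against 23.3% of all genes. *Chd7*, the gene mutated in CHARGE syndrome, whose features include ocular coloboma, had an RPKM of 30.4, 31.6 and 29.4 in WT and 26.9, 21.8 and 23.4 in *Mll1KO*. *Mll1KO* sample b was the lowest and sample a the highest of its group, and even that sample stayed beneath WT. The log2 fold change of *Chd7* was -0.33 (95% confidence interval -0.49 to -0.18), at 78.9% of WT, and it was -0.27 without *Mll1KO* sample b. *Chd4* and *Chd3* encode alternative ATPases of the NuRD complex, and *Chd4* was the most abundant CHD gene per length. *Chd4* had an RPKM of 68.7, 70.5 and 68.5 in WT and 65.2, 65.5 and 66.4 in *Mll1KO*, and *Chd3* had 60.3, 59.1 and 59.7 in WT and 51.4, 50.6 and 51.8 in *Mll1KO*. Both were lower in every *Mll1KO* sample than in any WT sample, but the gap was larger for *Chd3* (log2 fold change -0.22, 95% confidence interval -0.30 to -0.14) than for *Chd4*, which was not called (log2 fold change -0.07, 95% confidence interval -0.15 to 0.00). The ratio of *Chd3* to *Chd4* within a library was 0.878, 0.839 and 0.872 in WT and 0.788, 0.772 and 0.781 in *Mll1KO*, lower in each *Mll1KO* sample, again without a test, and *Chd3* too was singled out beyond the rule for named genes. *Chd5*, the NuRD ATPase of neurons, had the highest log2 fold change of the CHD genes, with an RPKM of 15.7, 15.9 and 16.9 in WT and 16.6, 16.4 and 16.3 in *Mll1KO*. WT samples lay on both sides of the *Mll1KO* samples, and it was not called (log2 fold change 0.03, 95% confidence interval -0.07 to 0.13). *Chd1*, which binds H3K4me3, *Chd2* and *Chd8* were not called either, with log2 fold changes of -0.0050, -0.04 and -0.08, and exons of other genes cover 19.3% of those of *Chd2*.

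NuRD joins a CHD ATPase to deacetylases through MTA scaffolds, MBD proteins and GATAD2 subunits, and here members of the same complex moved apart. *Mta2* was the most abundant of the 7 genes and had the highest log2 fold change, with an RPKM of 44.5, 48.4 and 45.6 in WT and 52.4, 50.9 and 51.4 in *Mll1KO*. Each *Mll1KO* sample was above each WT sample, WT sample b coming nearest, and the gene was called higher (log2 fold change 0.16, 95% confidence interval 0.06 to 0.25). That call was lost without WT sample a, WT sample c or any 1 of the *Mll1KO* samples, and with equal rod sums *Mta2* was called lower at -0.15, 0.15 above the median of all genes. *Gatad2a* (p66-alpha), which links MBD proteins to the complex, had the lowest log2 fold change, with an RPKM of 20.4, 21.0 and 19.2 in WT and 17.2, 17.2 and 16.9 in *Mll1KO*. Its *Mll1KO* samples differed little from one another and all lay below WT (log2 fold change -0.23, 95% confidence interval -0.33 to -0.13). Its paralog *Gatad2b* was called lower too (log2 fold change -0.21), a call lost with TMM, RLE and upper-quartile factors and without *Mll1KO* sample b or c. The length behind the RPKM of *Gatad2b* was 1906 bases where its annotated exons cover 11443, so its level relative to other genes is uncertain. *Mta1*, *Mta3*, *Mbd2* and *Mbd3* were not called, with log2 fold changes of -0.13, -0.08, 0.06 and -0.05. Between the MTA paralogs, the ratio of *Mta2* to *Mta1* within a library was 1.47, 1.76 and 1.64 in WT and 2.005, 1.90 and 2.03 in *Mll1KO*, so it was higher in each *Mll1KO* sample, with WT sample a the lowest of all.

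Class I deacetylases are the nuclear enzymes of the NuRD, SIN3, CoREST and NCOR complexes. *Hdac2* was the lowest of the 3 by log2 fold change, with an RPKM of 20.3, 20.2 and 20.0 in WT and 17.7, 16.6 and 16.9 in *Mll1KO*. WT samples had an SD of 0.127 RPKM (n = 3), and all *Mll1KO* samples were below them (log2 fold change -0.23, 95% confidence interval -0.32 to -0.13). *Hdac3*, the enzyme of NCOR complexes, was the most abundant, with an RPKM of 21.7, 21.4 and 21.7 in WT and 22.6, 22.8 and 21.4 in *Mll1KO*. *Mll1KO* sample c fell below the WT samples and the others above, and the gene was not called (log2 fold change 0.04, 95% confidence interval -0.05 to 0.13). *Hdac1*, the partner and paralog of *Hdac2*, was not called at -0.08 (95% confidence interval -0.22 to 0.06); *Gm10093* shares 35.3% of its 50-base stretches, so its level of 4.19 ± 0.229 RPKM (SD, n = 3) in WT is uncertain.

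Class II deacetylases include *Hdac4*, *Hdac5* and *Hdac9*, signal-dependent corepressors that shuttle between nucleus and cytoplasm, and *Hdac6*, a cytoplasmic tubulin deacetylase, while *Hdac11* is the class IV enzyme. All 5 had higher means in *Mll1KO* with the authors' scaling and with TMM, RLE and upper-quartile factors, and all 5 were below 0 but above the median of all genes with equal rod sums. *Hdac5* was the most abundant, with an RPKM of 31.6, 31.5 and 32.2 in WT and 36.7, 36.8 and 36.1 in *Mll1KO*. *Hdac9* had the highest log2 fold change of all genes described, with an RPKM of 11.9, 11.4 and 11.3 in WT and 13.5, 13.2 and 13.7 in *Mll1KO*. Neither gene showed overlap between the genotypes, and the spread within each genotype was small against the gap. *Hdac5* rose by 0.19 on the log2 scale (95% confidence interval 0.11 to 0.28) and *Hdac9* by 0.21 (95% confidence interval 0.11 to 0.31), and both stayed called whichever sample was left out. With equal rod sums they were at -0.11 and -0.09 and not called, 0.20 and 0.22 above the median of all genes. *Hdac6* had the lowest log2 fold change of these genes, 0.03 (95% confidence interval -0.07 to 0.12), its samples overlapping as given with the *Xist* values. *Hdac4* and *Hdac11* were not called at 0.14 and 0.09, although every *Mll1KO* sample was above WT, and *Hdac4* was called with limma-voom. Exons of other genes cover 22.4% of the exon bases of *Hdac4* and 17.9% of those of *Hdac11*. Since *Hdac2* was lower and *Hdac5* higher, the ratio of *Hdac5* to *Hdac2* within a library went from 1.56, 1.56 and 1.61 in WT to 2.07, 2.21 and 2.13 in *Mll1KO*. No *Mll1KO* sample came near the WT samples in this ratio.

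**Figure D2:**
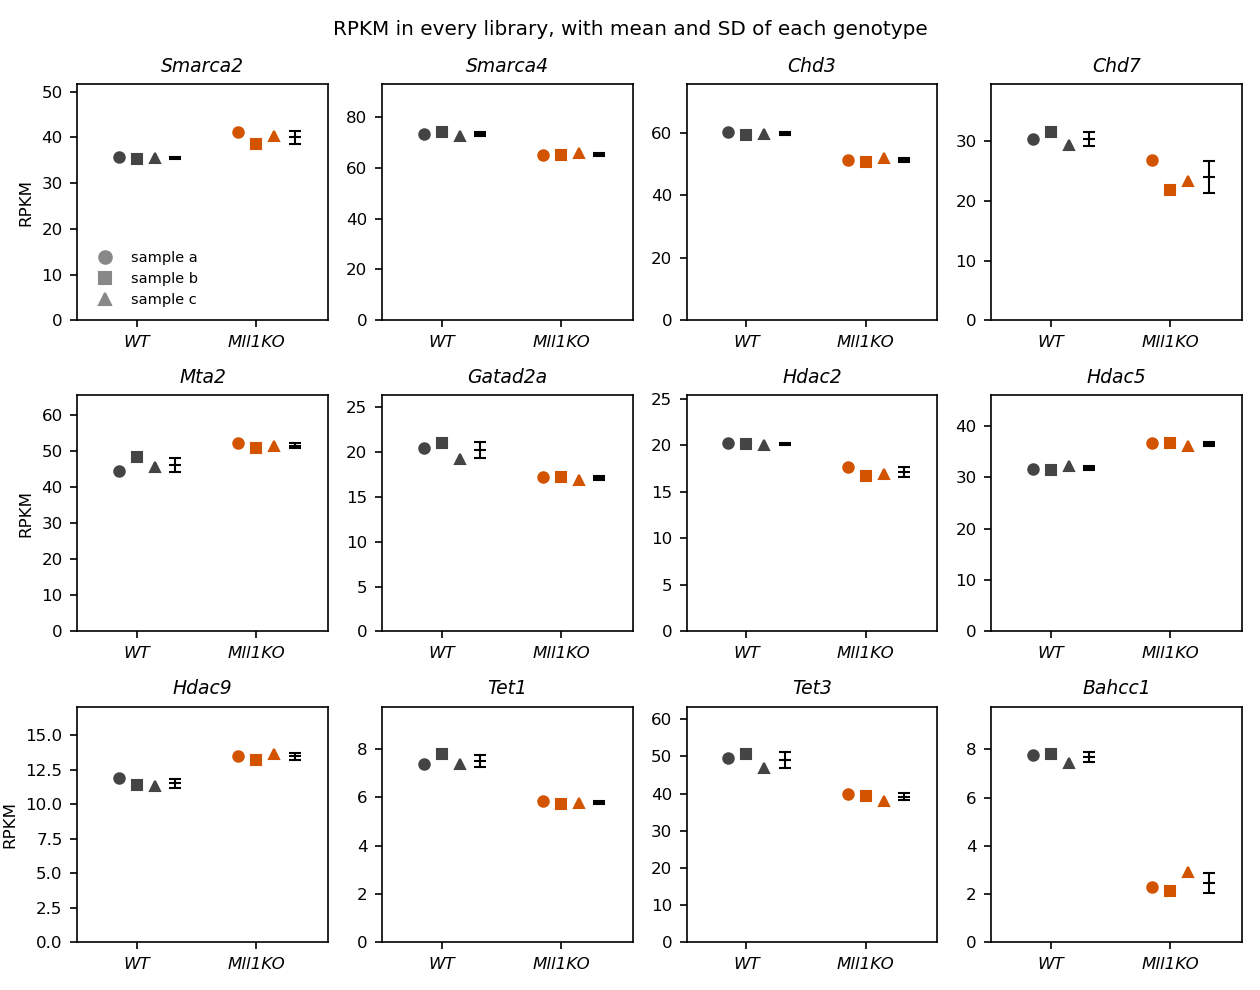
RPKM (vertical axes, from 0) of 12 genes in every library, WT in grey and *Mll1KO* in orange, with symbols for samples a, b and c and a bar for the mean and SD of each genotype (n = 3). *Smarca2*, *Mta2*, *Hdac5* and *Hdac9* lie higher in *Mll1KO* as scaled by the authors, an order that setting rod sums equal across libraries turns, and the other genes lie lower.

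DNA methylation is copied at replication by *Dnmt1*, set anew by *Dnmt3a* and oxidized by *Tet1*, *Tet2* and *Tet3*. None of these 5 genes had a higher mean in *Mll1KO* with the authors' scaling, though *Dnmt3a* turned to 0.01 with TMM, RLE and upper-quartile factors. *Tet1* had the lowest log2 fold change, with an RPKM of 7.37, 7.80 and 7.37 in WT and 5.83, 5.73 and 5.75 in *Mll1KO*. *Tet3* was the most abundant by RPKM, with 49.6, 50.7 and 46.8 in WT and 40.0, 39.3 and 38.1 in *Mll1KO*. The length behind the RPKM of *Tet3* was 11999 bases where its annotated exons cover 16695, so this rank is uncertain. In both *Tet1* and *Tet3* the *Mll1KO* samples were close to one another and clearly below WT. *Tet1* fell to 76.8% of WT (log2 fold change -0.33, 95% confidence interval -0.44 to -0.22) and *Tet3* to 79.8% of WT (log2 fold change -0.32, 95% confidence interval -0.41 to -0.22). *Tet2* was not called (log2 fold change -0.10, 95% confidence interval -0.20 to 0.01), and the ratio of *Tet3* to *Tet2* within a library was 2.31, 2.49 and 2.28 in WT and 1.98, 2.02 and 2.07 in *Mll1KO*, lower in each *Mll1KO* sample. For *Tet2* the length was 9179 bases where its annotated exons cover 16870, so the level of this ratio is uncertain. Among the methyltransferases, *Dnmt3a* had the highest log2 fold change of the group, with an RPKM of 37.9, 38.78 and 38.5 in WT and 37.2, 38.5 and 37.6 in *Mll1KO*. Its samples overlapped and its interval ran from -0.10 to 0.06. *Dnmt1* was called lower (log2 fold change -0.16), a call lost with TMM, RLE and upper-quartile factors and without WT sample b or *Mll1KO* sample b or c.

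Demethylases of histone lysines remove what methyltransferases such as MLL1 add, *Kdm1a* and *Kdm1b* being the flavin-dependent enzymes and *Kdm5a* and *Kdm5b* those of H3K4me3, while *Kdm2b* acts mainly on H3K36. *Kdm1b* (LSD2) was the one called of 5, against 23.3% of all genes, with an RPKM of 5.72, 6.15 and 5.07 in WT and 4.23, 4.45 and 4.52 in *Mll1KO*. WT sample c was the lowest of its group and still above all *Mll1KO* samples (log2 fold change -0.30, 95% confidence interval -0.45 to -0.15), and exons of *Dek* cover 9.2% of its exon bases. *Kdm5b* was the most abundant and had the highest log2 fold change, with an RPKM of 17.4, 18.6 and 18.3 in WT and 18.8, 19.7 and 19.5 in *Mll1KO*. All *Mll1KO* samples were above WT by a narrow gap, and it was not called (log2 fold change 0.09, 95% confidence interval -0.01 to 0.19). *Kdm1a* (LSD1), *Kdm2b* and *Kdm5a* were not called at -0.06, -0.14 and -0.08, *Kdm2b* being called with limma-voom.

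*Bahcc1* (ENSMUSG00000039741) encodes a protein with a BAH domain, a module that in this protein binds H3K27me3. The gene lies on the plus strand of chromosome 11 between 120232947 and 120292296 in GRCm38, and its RPKM was 7.75, 7.82 and 7.44 in WT and 2.31, 2.15 and 2.91 in *Mll1KO*. The *Mll1KO* samples were all below WT with a wide gap between the genotypes, and *Mll1KO* sample c was the highest of its group. WT averaged 7.67 ± 0.205 (SD, n = 3), and *Mll1KO* averaged 2.46 ± 0.405 (SD, n = 3) or 32.0% of it. Of all 11339 genes, 4 had a lower log2 fold change than its -1.33, and it was included for its value in this comparison, so no test is given. The size depended on the pseudocount, being -1.62 with 0.1 and -0.77 with 5, and reads per library ranged from 474 to 2055. Omitting any 1 sample kept it between -1.43 and -1.27.

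Partners and relatives of these genes were listed by family, 95 genes of which 84 were analysed. The lists were chosen with earlier results of these data known, so their calls are a description too. Called were 16 of them, 1 higher and 15 lower, where 23.3% of all genes were called, 8.81% higher and 14.5% lower. Their median log2 fold change was -0.07, and that of all genes was -0.03. Leaving out WT sample a left 10 called genes of these and 1977 of all genes. Without *Mll1KO* sample c the counts were 10 and 1757, where all samples gave 2643 for all genes. Of corepressor genes of SIN3, NCOR and CoREST, 3 of 15 were called, all lower, and *Rcor2*, a CoREST protein that binds *Kdm1a*, had an RPKM of 9.43, 8.9998 and 8.07 in WT and 6.17, 6.02 and 5.51 in *Mll1KO*. The gap between its genotypes was wider than the spread within either (log2 fold change -0.51), while the highest of the called corepressors was *Sap130* at -0.19. Among demethylases, *Kdm6b*, which removes methyl groups from H3K27, had an RPKM of 37.4, 37.1 and 33.6 in WT and 28.1, 25.7 and 25.9 in *Mll1KO*, and *Kdm4a*, an H3K9 demethylase, was called at -0.14. Each *Mll1KO* sample was below WT for *Kdm6b* (log2 fold change -0.42), and *Kdm6b* and *Kdm4a* were the 2 called of 9. The X-linked demethylase genes *Kdm5c* and *Kdm6a* followed *Xist* within *Mll1KO*, with RPKM of 47.1, 31.4 and 43.0 and of 11.3, 7.45 and 12.4, the lowest in sample b. ISWI partners gave 4 called of 9, from -0.23 for *Cecr2*, a bromodomain partner, to 0.24 for *Chrac1*, a histone-fold subunit and the one higher gene. Genes of INO80, SRCAP and other remodelers gave 3 of 11, from -0.23 for *Atrx* to -0.19 for *Chd9*. Further SWI/SNF subunits gave 2 of 14, *Bcl7c* at -0.29 and *Ss18* at -0.21, and the further NuRD subunits, 4 genes, lay between -0.09 and 0.11 without a call by limma (0 at an unadjusted p under 0.05, 0 called with limma-voom). Of further deacetylases and sirtuins 1 of 10 was called, *Sirt2* at -0.23, and of DNA methylation writers and readers 1 of 12, *Mbd6* at -0.25.

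Markers of several retinal cell types moved with genotype as well, and their part in the values of the chromatin genes was not tested. Values of the rod and bipolar lists are not given here. Summed RPKM of Müller glia markers (8 of 8 genes analysed, *Glul* the most abundant gene) was 1220, 1214 and 1338 in WT and 1601, 1657 and 1634 in *Mll1KO*, 6 genes being called, all higher, and the cone sums (8 of 8, *Opn1sw*) were 343, 358 and 374 in WT and 412, 429 and 449 in *Mll1KO*, 6 higher and 1 lower, *Opn1sw* itself being lower in each *Mll1KO* sample than in any WT sample. Both sums were higher in each *Mll1KO* sample than in any WT sample. Horizontal cell markers (5 of 7, *Sept4*) summed to 108, 111 and 106 in WT and 77.8, 80.2 and 83.1 in *Mll1KO* and ganglion cell markers (8 of 9, *Sncg*) to 529, 489.6 and 516 in WT and 414, 367 and 338 in *Mll1KO*, with 4 and 7 genes called, all lower. In these 2 cell types the sum of every *Mll1KO* sample was below that of every WT sample. Amacrine markers (9 of 10, *Slc32a1*) summed to 263, 249 and 261 in WT and 246, 243 and 272 in *Mll1KO*, with overlap and with 2 genes higher and 4 lower. Astrocyte markers (4 of 5, *Gfap*) summed to 13.9, 14.7 and 14.5 in WT and 22.9, 22.5 and 22.7 in *Mll1KO*, 3 genes being called higher. Sums of pigment epithelium markers (3 of 6, *Ttr*) were 153, 85.8 and 228 in WT and 73.3, 144 and 74.8 in *Mll1KO*, with no gene called by limma (1 at an unadjusted p under 0.05, 0 with limma-voom). Endothelium markers (6 of 6, *Kdr*) had mean sums of 82.4 and 62.1 in WT and *Mll1KO*, with 1 gene called higher and 2 lower, and pericyte markers (3 of 4, *Rgs5*) had 38.81 and 33.1, with 2 lower. For cycling progenitors (6 of 12 analysed, *Pcna*) the means were 30.1 and 29.3, with 1 gene called lower, and for microglia (4 of 8, *C1qb*) 17.0 and 17.1, with none called by limma (0 at an unadjusted p under 0.05, 0 with limma-voom). The lens gene *Cryaa* (1 of 4) had an RPKM of 6.54, 6.61 and 7.51 in WT and 32.1, 12.4 and 7.28 in *Mll1KO*, highest in *Mll1KO* sample a, and was not called by limma (1 at an unadjusted p under 0.05, 0 with limma-voom).

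The genes described lie on 18 chromosomes, with at most 5 on any of them, and 4 on chromosome 11, among them *Bahcc1*, the lowest, and *Hdac5*, one of those called higher. In GRCm38 the SWI/SNF ATPase genes are *Smarca4* (ENSMUSG00000032187) on the plus strand of chromosome 9 between 21616169 and 21704230 and *Smarca2* (ENSMUSG00000024921) on the plus strand of chromosome 19 between 26605050 and 26778322. *Mta2* (ENSMUSG00000071646) shares chromosome 19 with *Smarca2*, between 8941875 and 8952303, and both were called higher. Among genes that fell, the annotation places *Chd7* (ENSMUSG00000041235) on the plus strand of chromosome 4 between 8690406 and 8867659 and *Chd3* (ENSMUSG00000018474) on the minus strand of chromosome 11 between 69343273 and 69369406. The TET genes that were called are *Tet1* (ENSMUSG00000047146) on the minus strand of chromosome 10 between 62804570 and 62908996 and *Tet3* (ENSMUSG00000034832) on the minus strand of chromosome 6 between 83362373 and 83459084. *Hdac2* (ENSMUSG00000019777) lies on chromosome 10 as does *Tet1*, between 36974544 and 37001889. The class II deacetylase genes called higher are *Hdac5* (ENSMUSG00000008855) on the minus strand of chromosome 11 between 102194432 and 102230166 and *Hdac9* (ENSMUSG00000004698) on the minus strand of chromosome 12 between 34047580 and 34917095.

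MLL1 carries a CXXC domain that binds unmethylated CG dinucleotides, so the bases before a RefSeq start of a few of these genes are shown for their CG content. RefSeq promoter windows in GRCm38.p6 were found for 35 of 46 genes by symbol, not for *Arid2*, *Chd1*, *Chd2*, *Chd3*, *Chd7*, *Hdac1*, *Hdac3*, *Kdm5a*, *Mbd2*, *Mta3* and *Smarce1*, and the 250 bases before the start were taken. Those of *Bahcc1*, *Tet1* and *Tet3* stand for the genes with the lowest log2 fold changes that have a window, and those of *Hdac5* and *Hdac9* for genes that were higher. The motif searched was CG, which reads the same on both strands, and each CG is in capitals. Before the start there were 19 CG in *Bahcc1*, 15 in *Tet1*, 17 in *Tet3*, 12 in *Hdac5* and 0 in the outermost of 2 windows of *Hdac9*. At least as many CG were found in 19.7%, 27.3%, 23.5% and 33.5% of all 32851 windows for the former 4, and the median of all windows was 6. The other window of *Hdac9* held 2. Counting for each gene described its window with the most CG, the median was 23, above every window shown. The windows of *Tet1* and *Tet3* lie inside the gene spans given above, before a RefSeq start and not before the outermost annotated one. These counts describe the sequence and say nothing of binding.
Bahcc1 (chr11:120232697-120232946, plus strand): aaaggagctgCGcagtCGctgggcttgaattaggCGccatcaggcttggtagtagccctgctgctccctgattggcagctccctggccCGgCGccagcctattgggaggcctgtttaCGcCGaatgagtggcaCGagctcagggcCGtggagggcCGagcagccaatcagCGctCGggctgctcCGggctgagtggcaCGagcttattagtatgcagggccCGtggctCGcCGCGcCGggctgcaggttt
Tet1 (chr10:62887325-62887574, minus strand): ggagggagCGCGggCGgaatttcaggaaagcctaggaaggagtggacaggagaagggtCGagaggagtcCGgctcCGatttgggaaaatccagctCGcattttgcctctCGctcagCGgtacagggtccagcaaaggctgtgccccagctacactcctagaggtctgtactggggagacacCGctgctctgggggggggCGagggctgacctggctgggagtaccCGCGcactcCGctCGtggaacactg
Tet3 (chr6:83441679-83441928, minus strand): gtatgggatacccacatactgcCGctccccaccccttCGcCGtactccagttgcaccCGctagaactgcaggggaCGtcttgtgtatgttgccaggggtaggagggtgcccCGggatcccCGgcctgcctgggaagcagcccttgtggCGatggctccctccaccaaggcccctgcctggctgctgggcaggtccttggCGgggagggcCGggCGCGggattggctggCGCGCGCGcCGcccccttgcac
Hdac5 (chr11:102230173-102230422, minus strand): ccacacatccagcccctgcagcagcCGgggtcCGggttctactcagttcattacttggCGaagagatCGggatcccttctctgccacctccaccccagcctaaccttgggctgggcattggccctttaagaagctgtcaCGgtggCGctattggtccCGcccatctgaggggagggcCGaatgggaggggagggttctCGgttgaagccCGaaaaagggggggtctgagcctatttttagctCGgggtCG
Hdac9 (chr12:34917096-34917345, minus strand): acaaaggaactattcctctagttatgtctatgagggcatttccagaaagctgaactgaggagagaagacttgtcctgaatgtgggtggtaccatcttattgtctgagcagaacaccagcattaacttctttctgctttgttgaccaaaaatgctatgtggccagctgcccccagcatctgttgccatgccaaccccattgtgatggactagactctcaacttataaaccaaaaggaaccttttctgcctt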

How the data were processed

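RNA of 3 *Mll1KO* and 3 WT retinal samples at P14 had been sequenced. The authors aligned the reads with STAR 2.0.4b to mm10, counted them per gene with featureCounts 1.45 and compared genotypes with edgeR 3.17.9, versions as in the submitters' processing notes, after a filter on CPM. From these reads the authors made the deposited RPKM, scaled to gene length and library total. Log2 mean CPM values of the authors served only to choose between possible gene lengths, and their fold changes, p-values and FDR were not used.

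The 11404 lines held 11339 genes, of which 11323 matched GENCODE vM21, the source of coordinates and exons. Library totals and gene lengths that turn RPKM into whole reads within 0.05 reads were searched, which succeeded for 100% of genes. Comparisons used limma with a variance trend on log2(RPKM + 1), two-sided, without covariates and with Benjamini-Hochberg adjustment over 11339 genes. The procedure was tested on simulated reads in which 200 genes were changed. It called 69.1% of log2 changes of 0.25 and 100% of those of 0.5, so smaller changes can go uncalled. A log2 change of 1 was fitted at a median of 0.88. Far fewer genes were changed there than were called here, so these shares may differ in the data. Exon overlap and shared 50-base stretches were computed against all annotated transcripts. Alternatives were pseudocounts of 0.1 and 5, a mean RPKM of at least 1, TMM, RLE and upper-quartile factors, equal sums over rod genes, limma-voom on recovered reads, a term for the replicate letter, the *Xist* level as a covariate, and the omission of each sample. Per-sample values were given for genes with an absolute log2 fold change of at least 0.4 and a call, for the highest, lowest and most abundant gene of each family of 3 or more, for the lone genes of smaller ones and for *Kmt2a*; *Smarca4*, *Chd3*, *Xist*, *Pmel*, *Kdm5c*, *Kdm6a* and *Cryaa* were added beyond this rule. From each list of related genes the highest and lowest called gene was named. The members and lists were chosen with earlier results of these data known. Software was limma 3.58.1 in R 4.3.3, and numpy 2.4.6, pandas 2.3.3 and matplotlib 3.10.9 in Python 3.11.15.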

Additional observations from a re-analysis of the deposited data

How the results depend on the processing

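Called genes numbered 2643 of all genes, 18 of the 45 chromatin genes apart from *Bahcc1* and 16 of the related genes. These counts stayed within 1.5 times under both other pseudocounts, the minimum of mean RPKM, TMM, RLE and upper-quartile factors, limma-voom and the *Xist* covariate, the latter chosen after the data were seen. Equal rod sums in all libraries gave 9710, 41 and 78, since they move the median of all genes. Omitting a sample gave 1704 to 2536, 11 to 17 and 10 to 18, each such fit having fewer samples. Samples that share a letter did not deviate together (correlations of -0.039, -0.19 and -0.007), and with the letter as a replicate block 2242, 17 and 17 genes were called.

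With equal rod sums the sign turned for *Smarca2* (-0.14), *Smarcd3* (-0.20), *Smarca5* (-0.16), *Chd5* (-0.27), *Mbd2* (-0.24), *Mta2* (-0.15), *Hdac3* (-0.26), *Hdac4* (-0.11), *Hdac5* (-0.11), *Hdac6* (-0.27), *Hdac9* (-0.09), *Hdac11* (-0.21) and *Kdm5b* (-0.21), all log2 fold changes. With TMM, RLE and upper-quartile factors *Smarcb1* was at 0.01, 0.02 and 0.02, *Chd1* at 0.02, 0.03 and 0.03, and *Dnmt3a* at 0.01 each time. The *Xist* covariate gave *Smarcb1* 0.01 and *Chd1* 0.00073. Omitting a sample moved *Smarcb1* between -0.05 and 0.02 and *Chd1* between -0.02 and 0.01. None of *Smarcb1*, *Chd1* and *Dnmt3a* was called by limma except with equal rod sums, and the cause of their change of sign was not tested. The fewest reads of a chromatin gene in a library were 207, and the part of depth in its spread was not tested. Shared stretches leave the reads of *Hdac1* and *Smarca5* uncertain.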
